A study of Mus musculus with 12 samples.

Results

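The nuclear-encoded subunits of the respiratory chain were taken from the table of read counts by name: rows marked protein_coding whose symbol begins with Nduf (letters a, b, c, s or v and a number), Uqcr, Cox4 to Cox8 or Atp5, or is Sdha, Sdhb, Sdhc or Sdhd. The rule found 86 of the 55421 genes of the table, of which 21926 are marked protein_coding. By complex, 36 belong to complex I, 4 to complex II, 8 to complex III, 20 to complex IV (Ndufa4 and Ndufa4l2 included) and 18 to complex V. After a filter on low counts over all groups, 77 members were tested and 9 were not; all 86 are accounted for in what follows.

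The cells were OT-I cells, CD8 T cells with a transgenic receptor for an ovalbumin peptide, with Rroid2 intact (wild type, WT) or knocked out (KO). They were transferred into host mice, the hosts were infected with Listeria monocytogenes that expresses ovalbumin (LM-OVA), and the transferred cells were sorted from the spleen. SLEC, short-lived effector cells, were collected on day 7 and on day 14, and MPEC, memory precursor effector cells, on day 14. With 2 libraries for each population and genotype, these 3 populations make 6 groups and 12 libraries. All 6 groups share the receptor, the transfer and the infection, so no group is from an uninfected host. The sort gates, the strain and age of the hosts, and whether the libraries of a group came from separate animals were not given in the sources used here. The p-values therefore measure only the spread between these libraries, which may be technical.

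As background, the respiratory chain sits in the inner mitochondrial membrane. Complex I takes electrons from NADH and complex II from succinate, complex III passes them to cytochrome c, and complex IV hands them to oxygen. Complexes I, III and IV pump protons, and complex V, the ATP synthase, lets the protons back to make ATP. Nearly all subunits are encoded in the nucleus, while a small core of complexes I, III, IV and V is encoded by mitochondrial DNA. Effector CD8 T cells are known for high glycolysis during expansion, and memory cells for their use of oxidative phosphorylation.

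Total counts per library ran from 7603551 to 14026594, and the members took 0.293% to 0.563% of them, or 22256 to 69489 counts. Levels are given as CPM, the counts of a gene per 1e6 counts of its library, whose total was first scaled by the trimmed mean of M-values. A row with the symbol Rroid2 was not found in the table, so the deletion itself was not checked here. The summed level of 8 CD8 T cell markers ran from 4041 to 5642 CPM in all libraries. The 8 SLEC markers summed to 4355 to 7756 CPM in the SLEC and 522.9 to 662.3 CPM in the MPEC libraries, and the 8 MPEC markers to 222.0 to 810.7 CPM and 2408 to 2954 CPM, so the labels match their markers. Both WT SLEC day 14 libraries stood apart through 17 B cell markers, which summed to 790.5 and 3077 CPM there and to 25.7 to 426.1 CPM in the other 10 libraries. The 10 myeloid markers summed to 9.395 to 118.2 CPM, the 8 neutrophil markers to 0 to 76.69 CPM and the 8 erythroid markers to 0 to 101.7 CPM, the highest of the first pair being in WT SLEC day 14. Their part in the results was not tested. Numbers of members called in comparisons that use these libraries are given below also with 1 library left out.

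Sequences upstream of the genes were examined for letters that nuclear regulators of respiratory genes are known to read. RefSeq promoters (GRCm38.p6, from 250 bases before to 50 after the start of transcription) were found for 67 of the 86 members. On either strand, GCATGCGC, the letters of the factor NRF1, were in 10 of these 67 members (14.93%) and in 3.94% of 17492 protein-coding genes. AAGATGGC, read by YY1, was in 9 members (13.43%) and in 3.57% of protein-coding genes, and CCGGAAGT, read by ETS factors such as the GABP complex, was in 5 (7.46%) and in 5.69%. In no member did matches to different motifs overlap, but the NRF1 letters on one strand often overlapped the same letters on the other. In 8 of the 9 members with AAGATGGC the match began 22 to 38 bases after the first transcribed base, counted as 0, and these letters contain ATG, the letters of a start codon. A match describes letters and does not show that a factor binds.

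The 4 promoters shown belong to members described below for their changes or their motifs. Sdhb fell from day 7 to day 14, Sdha was the 1 member that rose, Cox7a2 fell furthest, and Uqcr11 was the 1 promoter of these 4 with matches to 2 motifs. Each runs 5′ to 3′ on the strand of its gene, and capitals mark NRF1 letters (GCATGCGC) or ETS letters (CCGGAAGT).
Sdhb, chr4:140961021-140961320 (plus strand): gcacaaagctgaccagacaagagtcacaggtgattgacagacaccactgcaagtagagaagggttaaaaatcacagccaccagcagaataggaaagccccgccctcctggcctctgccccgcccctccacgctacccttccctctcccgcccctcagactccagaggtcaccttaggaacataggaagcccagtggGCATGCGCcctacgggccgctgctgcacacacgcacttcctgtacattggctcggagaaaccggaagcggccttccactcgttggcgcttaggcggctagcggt
Sdha, chr13:74350191-74350490 (minus strand): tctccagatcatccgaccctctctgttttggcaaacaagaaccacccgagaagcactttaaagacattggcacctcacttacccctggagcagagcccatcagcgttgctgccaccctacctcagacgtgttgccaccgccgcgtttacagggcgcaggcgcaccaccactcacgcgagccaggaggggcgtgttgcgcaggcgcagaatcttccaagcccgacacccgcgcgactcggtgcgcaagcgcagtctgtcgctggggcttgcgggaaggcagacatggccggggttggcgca
Cox7a2, chr9:79759804-79760103 (minus strand): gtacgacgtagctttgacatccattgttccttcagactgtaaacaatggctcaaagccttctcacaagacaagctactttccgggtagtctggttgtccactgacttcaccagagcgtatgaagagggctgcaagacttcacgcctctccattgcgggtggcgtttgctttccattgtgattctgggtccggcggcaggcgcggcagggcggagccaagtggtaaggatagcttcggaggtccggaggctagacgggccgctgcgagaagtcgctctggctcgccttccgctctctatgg
Uqcr11, chr10:80406772-80407071 (minus strand): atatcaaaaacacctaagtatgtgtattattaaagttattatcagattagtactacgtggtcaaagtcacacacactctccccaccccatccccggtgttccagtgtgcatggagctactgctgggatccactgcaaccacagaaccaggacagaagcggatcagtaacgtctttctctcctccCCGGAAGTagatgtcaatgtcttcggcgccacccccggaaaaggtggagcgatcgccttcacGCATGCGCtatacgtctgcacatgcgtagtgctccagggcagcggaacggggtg
None of the 3 motifs was found in the Sdha or Cox7a2 window, which says only that these letters are not there.

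Over the 12 libraries the mean level of the 77 tested members ran from 0.692 to 396.5 CPM, with a median of 38.8 CPM. In 67 of them the 2 libraries of every group lay within 2-fold of each other. Per kilobase of the transcript, the highest levels were those of Uqcrh, the hinge protein of complex III (213.2 CPM per kb), Cox4i1, a nuclear subunit of cytochrome c oxidase (174.6), Atp5a1 and Atp5b, the catalytic pair of the ATP synthase head (160.5 and 159.1), and Atp5j, a stalk subunit (156.1). The lowest among tested members were Atp5g1 (0.303 CPM per kb), Atp5md (0.728), Atp5g2 (0.947), Ndufb2 (2.24) and Ndufb4 (2.25). Atp5g1 is listed with a transcript of 4715 bases, so its level per kilobase depends on which transcript the cells use. It was also the member whose replicates differed most, by 3.43-fold after adding 0.5 CPM, with 0.205 and 1.92 CPM in KO MPEC.

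Complex IV has subunits with tissue-specific isoforms, and the isoform known from most tissues was the one detected. Cox4i1 averaged 174.6 CPM per kb while Cox4i2, a lung isoform, had 4 counts over all 12 libraries. Cox6a2, the isoform of heart and skeletal muscle, had 0 counts against a level of 70.4 CPM per kb for Cox6a1. Cox7a1, also of heart and muscle, had 21 counts against 28.6 CPM per kb for Cox7a2. Cox8b had 5 and Cox8c 0 counts, beside 127.9 CPM per kb for Cox8a. Cox6b2 and Cox7b2, isoforms of testis, had 45 and 3 counts, while Cox6b1 was at 80.3 and Cox7b at 74.9 CPM per kb. Ndufa4l2, induced by hypoxia in other cells, had 0 counts, and Ndufa4 was at 25.8 CPM per kb. These 8 rows and a second row named Atp5o, which had 0 counts, are the 9 members below the filter. Of the 3 genes for the same c-ring protein of the ATP synthase, Atp5g3 was at 64.8 CPM per kb, far above Atp5g1 and Atp5g2, although nearly all of the Atp5g2 transcript is repeated elsewhere in the genome, as described at the end.

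**Figure D1:**
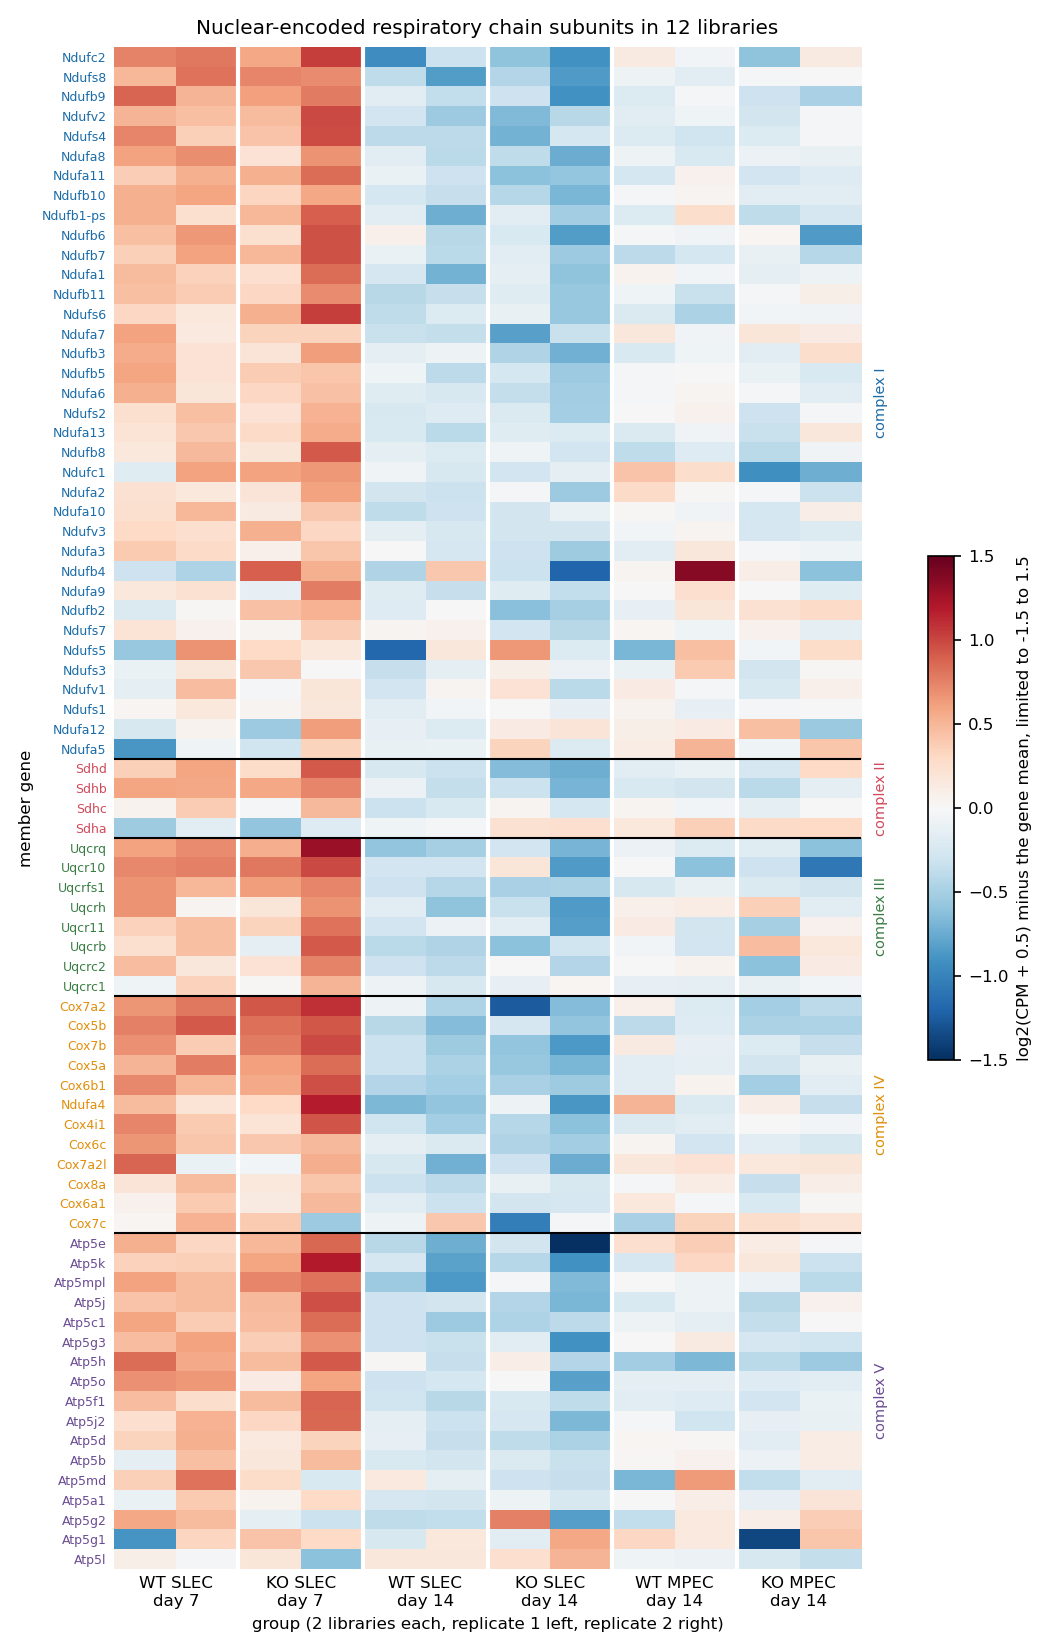
Each row is 1 of the 77 tested members, grouped by complex, and each column 1 library. Colour is log2(CPM + 0.5) minus the mean of the gene over the 12 libraries, limited to -1.5 to 1.5. Most rows are red in the 4 day 7 libraries and blue in the 4 day 14 SLEC libraries, with MPEC between them, while Sdha at the foot of complex II runs the other way.

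The members differed most often between SLEC of day 7 and of day 14. Taken over both genotypes, 61 of the 77 tested members differed at an adjusted p under 0.05 (edgeR's quasi-likelihood test, Benjamini-Hochberg adjustment over all 14460 genes tested). Of these, 60 were lower on day 14, where 13.7% of all genes tested were called lower, and 1, Sdha, was higher, where 11.4% of all genes were called higher. The median log2 change of the members was -0.84 and that of all tested genes 0.02. All 4 day 14 libraries lay below all 4 day 7 libraries for 59 of the 77 members and for 12.6% of all tested genes. In bulk libraries such as these, fewer cells of a type and less RNA per cell cannot be told apart, and CPM gives a share of the library's RNA rather than an amount per cell.

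Summed over the 86 members, the level was 5084 and 5336 CPM in WT and 4896 and 6270 CPM in KO SLEC on day 7. On day 14 it was 3441 and 3214 CPM in WT and 3481 and 3058 CPM in KO SLEC, and 3927 and 4050 CPM in WT and 3688 and 3998 CPM in KO MPEC. Every day 7 library was above every day 14 library, and every MPEC library above every day 14 SLEC library. The day 14 SLEC sum was 61.1% of the day 7 sum. By complex this share was 61.0% for complex I, 96.4% for complex II, 57.3% for complex III, 48.7% for complex IV and 62.2% for complex V.

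**Figure D2:**
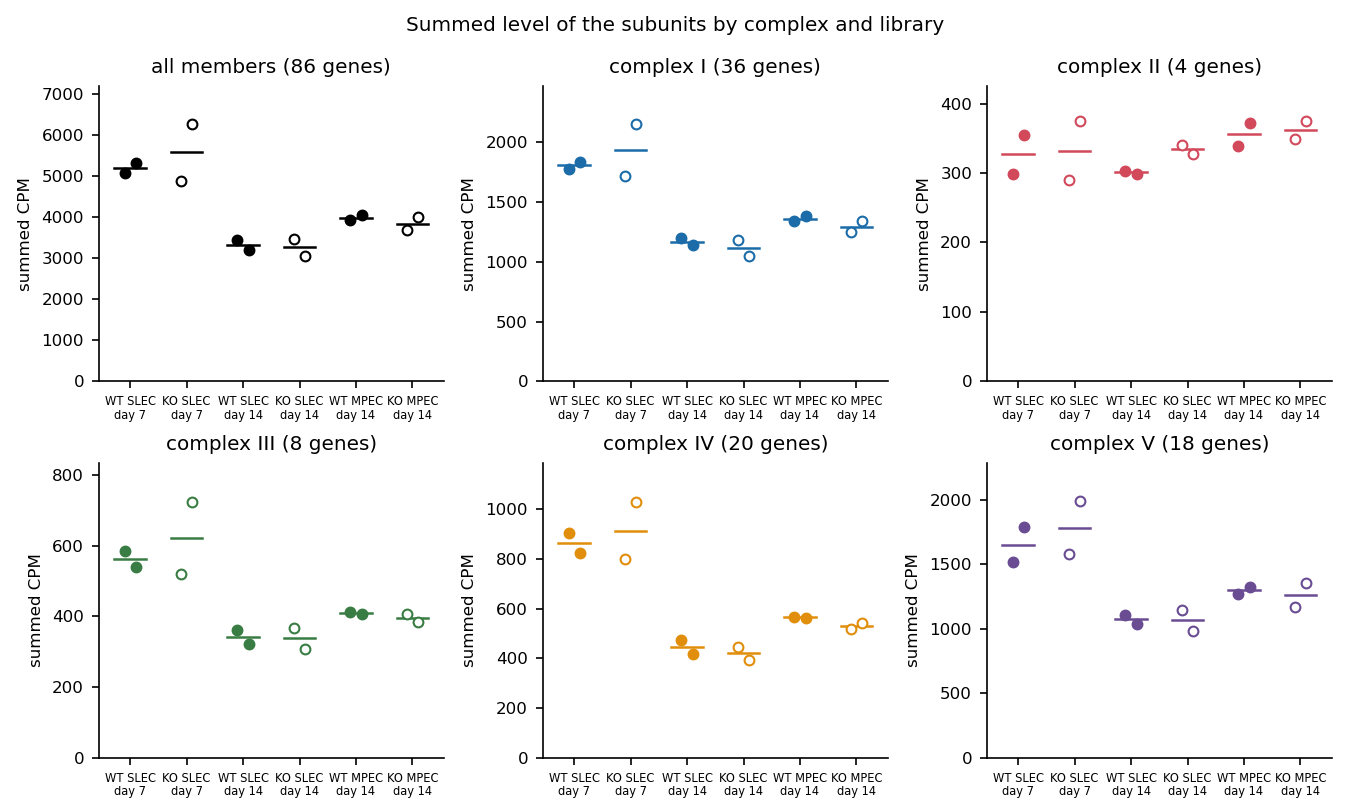
Summed CPM of all members and of each complex (vertical axis, from 0) in the 6 groups, with 1 point per library, filled for WT and open for KO, and a bar at the group mean. The sums of complexes I, III, IV and V are lower in all day 14 libraries than in all day 7 libraries, while for complex II the day 7 and day 14 libraries overlap.

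In complex I, 26 of 36 members fell and none rose, with a median log2 change of -0.68. Ndufc2, an accessory subunit of the membrane arm, was at 28.8 and 29.7 CPM in WT and 25.7 and 35.4 CPM in KO SLEC on day 7. On day 14 it was at 8.69 and 13.5 CPM in WT and 11.03 and 8.80 CPM in KO SLEC, so the days did not overlap. Its log2 change was -1.49 (SE 0.21, adjusted p = 4.7e-05). Ndufs8, a core subunit that carries iron-sulfur clusters, fell by 1.33 on the log2 scale (SE 0.16, adjusted p = 1.4e-05), from 33.2 to 41.7 CPM over the 4 day 7 libraries to 12.8 to 17.9 CPM over the 4 day 14 SLEC libraries.

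Other core subunits of complex I moved little. Ndufs1, the largest subunit and the one that carries several iron-sulfur clusters, was at 73.0 and 79.6 CPM in WT and 73.9 and 80.7 CPM in KO SLEC on day 7, against 64.3 and 69.5 CPM and 71.3 and 65.8 CPM on day 14. The days do not overlap, but the log2 change of -0.18 (SE 0.11, adjusted p = 0.24) did not pass. Ndufv1, which binds NADH, gave -0.21 (SE 0.16, adjusted p = 0.36), and Ndufs3, another core subunit, gave -0.25 (SE 0.18, adjusted p = 0.32). Of the Ndufs3 transcript only 60.3% is not repeated in other genes, so its values are less certain, as described at the end. Ndufv2, the partner of Ndufv1, did fall, by 1.10 (SE 0.14, adjusted p = 1.5e-05). By symbol, 17 members were assigned to the peripheral arm, which protrudes into the matrix and holds the electron path. Of these 10 fell, with a median of -0.58. Of the 19 assigned to the membrane arm, 16 fell, with a median of -0.84. The assignment by symbol was not checked against structures. It places Ndufs5, which did not pass (-0.25, SE 0.48, adjusted p = 0.75), in the peripheral arm with the other Ndufs members, and its place there is doubtful. Ndufb8, often used as a blot marker of complex I, fell by 0.64 (SE 0.17, adjusted p = 0.0096), a call that was lost without KO SLEC day 7 replicate 2 (-0.43).

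Complex II, which is also the succinate dehydrogenase of the tricarboxylic acid cycle, was the complex whose members parted. Sdha, the flavoprotein that oxidises succinate, was at 143.0 and 183.7 CPM in WT and 137.6 and 180.9 CPM in KO SLEC on day 7. On day 14 it was at 198.8 and 204.1 CPM in WT and 242.6 and 247.9 CPM in KO SLEC, and at 231.6 and 266.6 CPM in WT and 252.2 and 255.7 CPM in KO MPEC. All 8 day 14 libraries were above all 4 day 7 libraries. The log2 change between SLEC of the 2 days was 0.46 (SE 0.11, adjusted p = 0.0059).

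Sdhb, the iron-sulfur subunit that takes the electrons from Sdha, went the other way. It was at 86.0 and 85.3 CPM in WT and 85.5 and 94.7 CPM in KO SLEC on day 7. On day 14 it was at 53.6 and 44.4 CPM in WT and 45.5 and 35.0 CPM in KO SLEC. Its log2 change was -0.98 (SE 0.12, adjusted p = 1.9e-05), with no overlap between the days. Sdhd, a membrane anchor, fell by 1.05 (SE 0.175, adjusted p = 0.00026), and Sdhc, the other anchor, by 0.42 (SE 0.15, adjusted p = 0.047). The Sdhc call was at the edge of the threshold: its days overlap, at 33.8 to 48.9 CPM over the 4 day 7 and 27.6 to 35.7 CPM over the 4 day 14 SLEC libraries, and it was kept under 3 of 17 alternatives. With DESeq2 the adjusted p was 0.056, and with 1 library left out the change was -0.277 to -0.552, called only without either replicate 1 of day 7. Sdha has the highest CPM of the 4. The share of complex II in the members' sum was 6.27% in WT and 5.95% in KO SLEC on day 7, against 9.04% and 10.2% on day 14. The Sdha and Sdhb genes lie on chromosome 13 from 74322254 to 74350280 on the minus strand and on chromosome 4 from 140961203 to 140979193 on the plus strand (GRCm38).

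**Figure D3:**
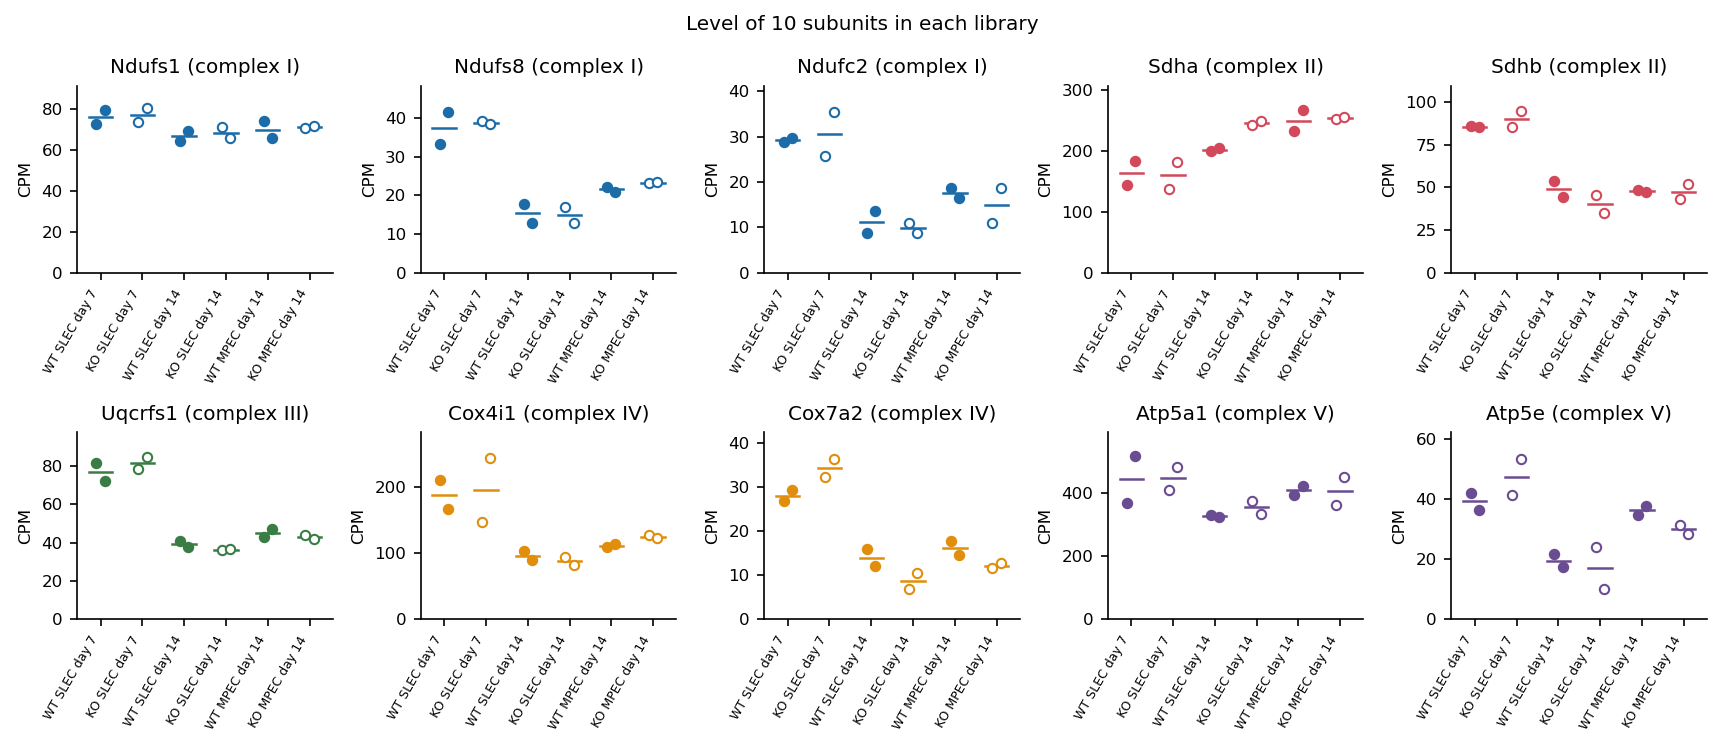
CPM of 10 members (vertical axes, each from 0) in the 6 groups, 1 point per library, filled for WT and open for KO, with a bar at the group mean. Sdha is higher in all day 14 libraries than in all day 7 libraries, Ndufs1 spans a narrow range of 64.3 to 80.7 CPM, and the other members are lower in day 14 SLEC, with Atp5a1 overlapping.

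In complex III, 7 of 8 members fell, with a median of -0.90. Uqcrfs1, the Rieske iron-sulfur protein, was at 81.7 and 72.3 CPM in WT and 78.5 and 84.6 CPM in KO SLEC on day 7, against 41.1 and 37.7 CPM and 36.2 and 36.4 CPM on day 14, a log2 change of -1.07 (SE 0.11, adjusted p = 3.5e-06). The libraries of each day lay close together and far from those of the other day. Uqcrq, a small subunit, fell by 1.33 (SE 0.16, adjusted p = 1.4e-05). Uqcrc1, a large core protein without a redox group, was the 1 that did not pass, at -0.32 (SE 0.13, adjusted p = 0.072), but it passed without WT SLEC day 7 replicate 1 (-0.42) or KO SLEC day 7 replicate 1 (-0.44).

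Complex IV had the lowest median of the 5, -1.08, and 11 of its 12 tested members fell. Cox7a2, a small subunit, was at 26.7 and 29.3 CPM in WT and 32.3 and 36.3 CPM in KO SLEC on day 7, against 15.9 and 11.96 CPM in WT and 6.78 and 10.4 CPM in KO SLEC on day 14. This was the largest fall of any member, -1.52 (SE 0.18, adjusted p = 1.1e-05), without overlap between the days. Cox5b changed by -1.34 (SE 0.12, adjusted p = 4e-07), Cox7b by -1.29 (SE 0.125, adjusted p = 1.2e-06), Cox5a by -1.21 (SE 0.13, adjusted p = 3.4e-06) and Cox4i1 by -1.06 (SE 0.14, adjusted p = 3.9e-05). All 4 are nuclear subunits that surround the mitochondrially encoded catalytic core. Cox7a2l, which joins complexes III and IV into supercomplexes, fell by 0.86 (SE 0.21, adjusted p = 0.011), a call that was lost without KO SLEC day 14 replicate 2 (-0.77). Cox7c was at -0.36 (SE 0.32, adjusted p = 0.46).

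In complex V, 13 of the 17 tested members fell, with a median of -0.84, and the 5 subunits of the F1 head were all among them. Atp5e, the smallest of the head, was at 42.1 and 36.2 CPM in WT and 41.4 and 53.3 CPM in KO SLEC on day 7, against 21.6 and 17.3 CPM and 24.0 and 10.03 CPM on day 14, a log2 change of -1.22 (SE 0.19, adjusted p = 0.00015). The days did not overlap, although the KO libraries of day 14 differed 2.32-fold. The catalytic pair of the head moved least of the 5, Atp5b by -0.52 (SE 0.12, adjusted p = 0.0043) and Atp5a1 by -0.38 (SE 0.12, adjusted p = 0.024). Atp5a1 was at 366.2 to 517.0 CPM over the 4 day 7 libraries and at 323.6 to 373.6 CPM over the 4 day 14 SLEC libraries, which overlap. Its call was lost without WT SLEC day 7 replicate 2, KO SLEC day 7 replicate 2, either WT SLEC day 14 library or KO SLEC day 14 replicate 2 (-0.25 to -0.39). Of the 12 tested members of the membrane part and the stalks, 8 fell. The 4 that did not pass were Atp5g1, Atp5g2, Atp5l and Atp5md, which have low levels or share most of their sequence with other genes. Atp5l, at 0.34 (SE 0.23, adjusted p = 0.31), and Ndufa5 of complex I, at 0.19 (SE 0.21, adjusted p = 0.55), were the 2 members beside Sdha with a positive change.

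Within each genotype the direction was alike. In WT SLEC 40 members were called, all lower, where 5.25% of all genes tested were called lower and 4.69% higher, with a median of -0.735. In KO SLEC 52 were called, 51 lower and Sdha higher, where 9.5% of all genes were called lower and 7.7% higher, with a median of -0.95. The lists share 38 members, 95.0% of those called in WT and 73.1% of those called in KO. Among those called, the largest falls in WT were those of Ndufc2 (-1.38), Cox5b (-1.38), Ndufs8 (-1.29), Atp5mpl (-1.29), Uqcrq (-1.21) and Cox6b1 (-1.10), and in KO those of Cox7a2 (-2.02), Cox7b (-1.61), Ndufc2 (-1.59), Atp5k (-1.56), Uqcrq (-1.44) and Atp5e (-1.42). The changes in WT and KO come from different libraries, and over the 77 members they had a Pearson correlation of 0.47 and a Spearman correlation of 0.65, against 0.37 and 0.48 over all genes tested. The difference between the genotypes in this change passed for 0 members by edgeR and by DESeq2, where 0.00692% of all genes were called, and 5 members had an unadjusted p under 0.05. The smallest p was that of Cox7a2, with a difference of -1.01 (SE 0.37, adjusted p = 0.71).

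**Figure D4:**
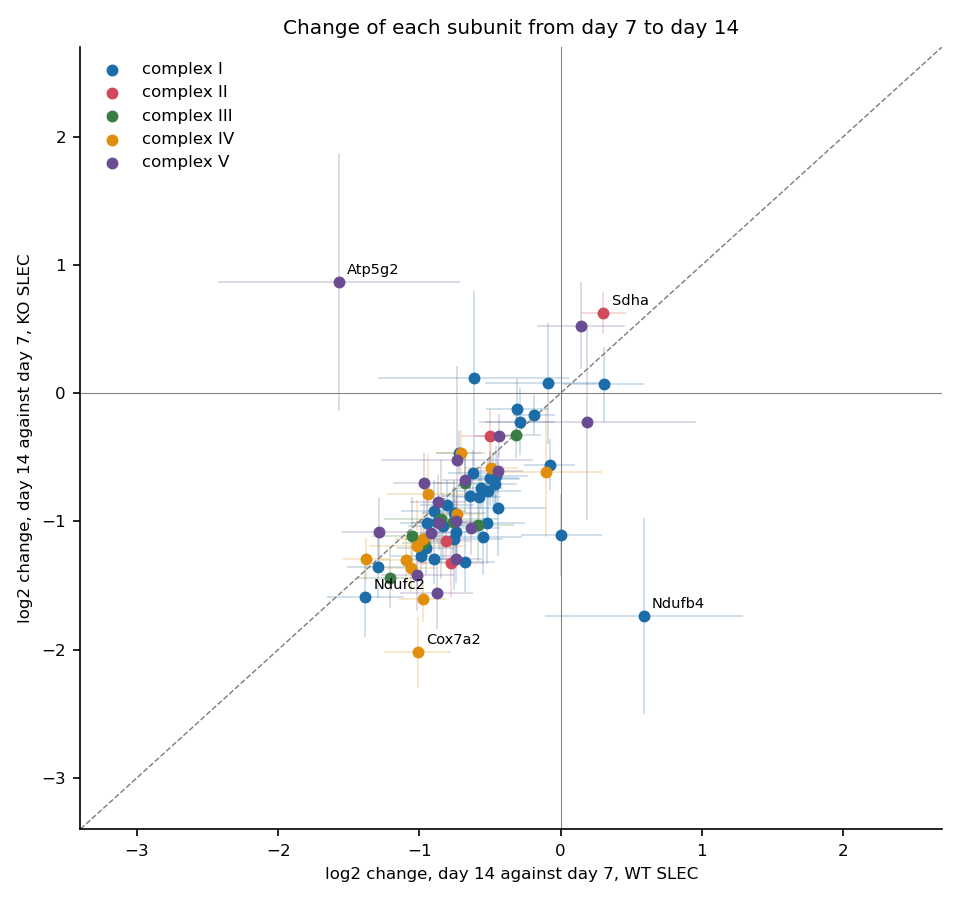
Log2 change from day 7 to day 14 in WT SLEC (horizontal) and in KO SLEC (vertical) for the 77 tested members, coloured by complex, with bars of 1 SE and the line of equal change dashed. Most points lie at lower left, Sdha at upper right, and Atp5g2 and Ndufb4, with wide error bars, far from the line.

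The counts within a genotype rest on single libraries. Without WT SLEC day 14 replicate 2, the library with 3077 CPM of B cell markers, 9 members were called in WT, where 1.31% of all genes were called lower. Without replicate 1 of that group there were 23 (2.12% of all genes called lower). In KO, 24 were called without SLEC day 14 replicate 2 (2.89%) and 30 without SLEC day 7 replicate 2 (4.94%). That last library had the highest sum of the members and exceeded its replicate for 67 of the 77. The rise of Sdha in KO was 0.63 (SE 0.16, adjusted p = 0.013), and the call was lost without KO SLEC day 7 replicate 1 (0.42) or either KO SLEC day 14 library (0.64 and 0.60). In WT Sdha gave 0.30 (SE 0.16, adjusted p = 0.27). Over both genotypes, 53 to 63 members were called when any 1 of the 12 libraries was left out. In KO SLEC the B cell markers summed to 78.0 and 60.3 CPM on day 7 and 70.0 and 28.2 CPM on day 14, and the median change of the members there was -0.95. The part of the B cell markers in the change in either genotype was not tested.

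Values that moved with the day beside the members were those of the cell cycle, of ribosomal RNA and of transcript length. The 20 genes of the G2 and M phase list summed to 1281 to 3512 CPM over the 4 day 7 libraries, to 97.7 to 213.5 CPM in day 14 SLEC and to 107.0 to 150.4 CPM in MPEC, and all 20 fell from day 7 to day 14. Mitochondrial ribosomal RNA took 12.6% to 19.5% of the counts on day 7, 8.0% to 10.2% in day 14 SLEC and 11% to 13.8% in MPEC. Short transcripts were lower on day 14 in general: the median change was -0.65 over 380 protein-coding genes with transcripts under 800 bases, -0.35 over 1588 of 800 to 1600 bases, -0.10 over 4106 of 1600 to 3200 bases and 0.16 over 4970 longer ones. The members' medians in the first 3 of these classes were -0.91 (35 members), -0.84 (26) and -0.56 (14), each below that of the class. Over the 77 members the correlation of the change with log2 transcript length was 0.38 (Pearson) and 0.31 (Spearman). Over all 11044 tested protein-coding genes it was 0.25 (Pearson) and 0.36 (Spearman). In both sets the points share libraries and scaling. The part of the cell cycle, of ribosomal RNA and of transcript length in the members' change was not tested.

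**Figure D5:**
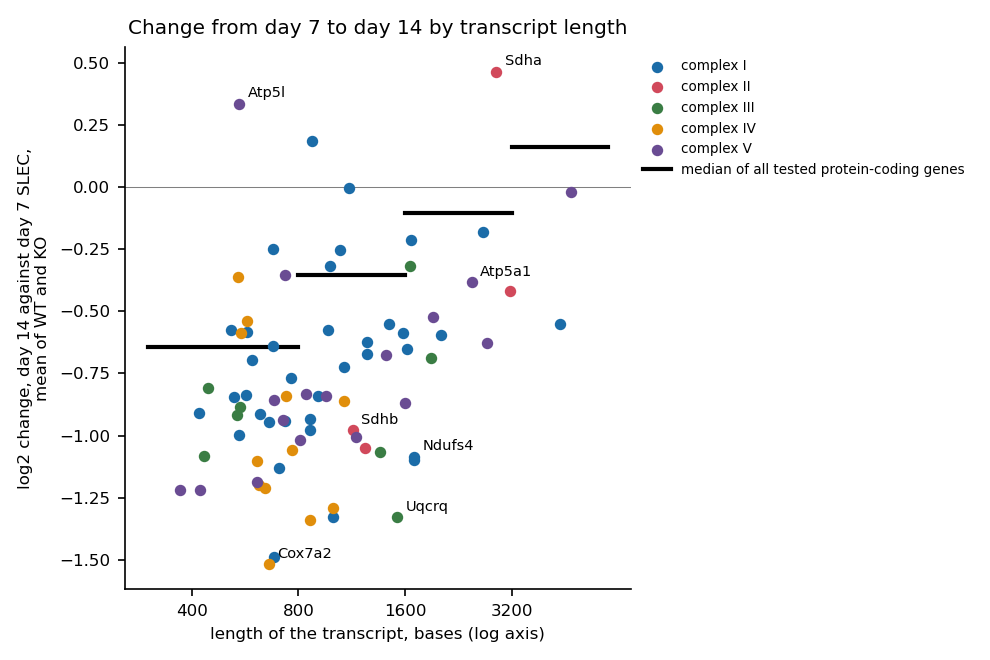
Log2 change from day 7 to day 14 SLEC, mean of the genotypes, against the length of the transcript on a log axis, for the 77 tested members coloured by complex. Black lines are medians of all tested protein-coding genes in 4 length classes, which rise from -0.65 to 0.16, and most members lie below the line of their class, Sdha above it.

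The change from day 7 to day 14 was also set beside the promoter letters, as a description. Of the 10 with NRF1 letters 7 fell, with a median of -0.75, of the 9 with YY1 letters 7 fell (-0.67), and of the 5 with ETS letters 4 fell (-0.81). Of the 40 tested members with a promoter but none of the 3 motifs, 30 fell, with a median of -0.85.

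MPEC and SLEC of day 14 differed in few members. Over both genotypes, 4 members were higher in MPEC, where 7.14% of all genes tested were called higher, and none was lower, where 5.99% were. So few calls, near the share over all genes, are no result about the members. The differences were mostly positive: 70 of 77 were above 0, against 48.9% of all tested genes, with a median of 0.24 against -0.01. In 66 of the 77 the mean level was highest in day 7 SLEC, lower in MPEC and lowest in day 14 SLEC. The share of all genes with this order is not given here, so the count is a description only. The summed level in MPEC was 72.6% of that of day 7 SLEC and 119% of that of day 14 SLEC.

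The 4 members called were Atp5e of the ATP synthase head, Ndufa7 and Ndufs8 of the peripheral arm of complex I, and Cox7b of complex IV. Atp5e was at 34.7 and 37.8 CPM in WT and 31.4 and 28.4 CPM in KO MPEC, against 21.6 and 17.3 CPM and 24.0 and 10.03 CPM in day 14 SLEC, with no overlap and a log2 difference of 0.83 (SE 0.20, adjusted p = 0.0071). Ndufa7 was at 19.8 to 23.2 CPM over the 4 MPEC and 11.4 to 16.1 CPM over the 4 SLEC libraries (0.59, SE 0.18, adjusted p = 0.032), and Ndufs8 at 21.0 to 23.4 CPM and 12.8 to 17.9 CPM (0.56, SE 0.17, adjusted p = 0.036), both without overlap. Cox7b gave 0.45 (SE 0.13, adjusted p = 0.026), and its libraries overlapped slightly. All 4 MPEC libraries were above all 4 day 14 SLEC libraries for 14 members, and for 10.4% of all genes tested. With DESeq2 in place of edgeR 8 members were called, and with 1 library left out 1 to 8. That of Atp5e was kept each time. Ndufs8 was not called without WT or KO SLEC day 14 replicate 2 or any 1 of the MPEC libraries (0.44 to 0.58). Ndufa7 was not called without either WT SLEC day 14 library, KO SLEC day 14 replicate 1 or any 1 of the MPEC libraries (0.46 to 0.64). Cox7b was not called without either WT SLEC day 14 library, either KO MPEC library, WT MPEC replicate 1 or KO SLEC day 14 replicate 2 (0.372 to 0.485).

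Within WT, Atp5e alone was called between MPEC and day 14 SLEC, at 0.90 (SE 0.26, adjusted p = 0.041), where 3.66% of all genes were higher and 4.3% lower. The call was lost without any 1 of the WT SLEC day 14, WT MPEC or KO MPEC libraries (0.74 to 1.04). Within KO 0 members were called by edgeR or by DESeq2, where 2.9% of all genes were higher and 2.21% lower, and 12 members had an unadjusted p under 0.05. The smallest p values in KO were those of Ndufa7 (0.75, SE 0.26, adjusted p = 0.12), Sdhd (0.76, SE 0.27, adjusted p = 0.13) and Atp5e (0.76, SE 0.29, adjusted p = 0.17).

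Against SLEC of day 7, 48 members differed in MPEC over both genotypes: 47 were lower, where 18.1% of all genes were called lower, and Sdha was higher, where 16.4% were called higher. The median was -0.54. All 4 MPEC libraries lay below all 4 day 7 libraries for 44 members and for 16.3% of all genes tested. The largest falls were those of Uqcr10 (-1.30), Atp5h (-1.25), Cox5b (-1.25), Cox7a2 (-1.14), Uqcrq (-1.08) and Ndufb9 (-0.97), and Sdha rose by 0.64 (SE 0.11, adjusted p = 0.00027). This comparison shares its day 7 libraries with that of day 14 and day 7 SLEC. Sdhb was at 48.6 and 47.0 CPM in WT and 43.0 and 52.0 CPM in KO MPEC, within the range of day 14 SLEC. Atp5h, a stalk subunit, was below its SLEC level of day 14 in MPEC, at 36.2 to 43.6 CPM against 42.7 to 62.2 CPM (-0.39, adjusted p = 0.099).

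The question of the series is what loss of Rroid2 does in these cells. For the respiratory chain subunits no difference between KO and WT passed in any population. In SLEC of day 7, 0 of 77 members were called by edgeR or by DESeq2, where 0.0277% of all genes were called, 4 members had an unadjusted p under 0.05, 58 changes were above 0 (50% of all genes), and the median was 0.09. In SLEC of day 14, 0 were called by either tool (0.546% of all genes), 1 had an unadjusted p under 0.05, 29 were above 0 (48.0% of all genes), and the median was -0.05. In MPEC, 0 were called by either tool (0.0138% of all genes), 1 had an unadjusted p under 0.05, 23 were above 0 (48.5% of all genes), and the median was -0.07. As the mean over the 3 populations 0 were called by either tool (0.083% of all genes) and 0 had an unadjusted p under 0.05. Of the G2 and M phase list, 20 of 20 genes were above 0 in KO against WT SLEC of day 7 (median 0.35). It was 1 of 20 on day 14 (-0.93) and 4 of 20 in MPEC (-0.245), with 0 called each time and 1 at an unadjusted p under 0.05. On day 7 this list summed to 1281 and 3512 CPM in WT and 2955 and 2841 CPM in KO. WT replicate 2 was thus above both KO libraries. The members summed to 5084 and 5336 CPM in WT and 4896 and 6270 CPM in KO there. KO replicate 1 was thus below both WT libraries. The part of the G2 and M phase list in the members' values was not tested.

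The size of the errors bounds what could be seen. For the mean of the populations the members' SE had a median of 0.13, and all 77 estimates lay between -0.49 and 0.37 on the log2 scale. In a single population the median SE was 0.21 to 0.23, and 70 to 72 members had estimates within 0.5 of 0. The 6 members with the smallest SE, 0.088 to 0.094, gave mean KO effects of 0.03 (Ndufs1), -0.17 (Ndufb10), -0.05 (Ndufv3), 0.09 (Sdha), -0.11 (Ndufa6) and -0.15 (Atp5d). Those with the smallest p in the mean were Ndufb10 (-0.17, SE 0.09, adjusted p = 0.66), Cox7a2 (-0.28, SE 0.15, adjusted p = 0.67) and Ndufs6 (0.28, SE 0.17, adjusted p = 0.71). A p that misses the threshold does not show that the genotypes have equal levels.

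Members with a low p in 1 population had varied values in the others. Cox7a2 was at 15.9 and 11.96 CPM in WT and 6.78 and 10.4 CPM in KO SLEC of day 14 (-0.72, SE 0.30, adjusted p = 0.31), while on day 7 both KO libraries were above both WT libraries (0.29, adjusted p = 1) and in MPEC its change was -0.41 (adjusted p = 1). Ndufc1 was at 9.59 and 8.57 CPM in WT and 3.49 and 4.03 CPM in KO MPEC (-1.27, SE 0.40, adjusted p = 1), and at -0.08 in SLEC of day 14. Atp5k gave 0.56 (SE 0.25, adjusted p = 1) in SLEC of day 7, with values of 45.5 and 46.1 CPM in WT and 54.2 and 81.8 CPM in KO. Ndufs6 gave 0.56 there and Ndufb4 1.40, at 1.43 and 1.23 CPM in WT and 3.94 and 2.96 CPM in KO. In no member were both KO libraries beyond both WT libraries in the same direction in all 3 populations, a pattern that 1.31% of all tested genes had. The difference of the KO effect between MPEC and day 14 SLEC passed for 0 members by edgeR and by DESeq2, as for 0.0% of all genes, and 0 members had an unadjusted p under 0.05.

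Other genes of the pathway were followed from lists. Of the 13 subunits encoded by mitochondrial DNA, 7 were tested and the other 6 had at most 1 count. The 13 summed to 5596 to 11940 CPM per library. How reads with several matches were counted was not given in the sources used here. The near absence of the 6 therefore cannot be read as a low level. Among the 7, 3 fell from day 7 to day 14 SLEC, where 13.7% of all genes did: mt-Nd5 (-0.66, SE 0.12, adjusted p = 0.00078), mt-Co1 (-0.65, adjusted p = 0.0034) and mt-Nd6 (-0.35, adjusted p = 0.033). In MPEC against day 14 SLEC 6 of the 7 were higher, all but mt-Cytb, where 7.14% of all genes were, with a median of 0.54, beside the 4 of 77 nuclear members with a median of 0.24. Against day 7, MPEC differed in 1 of the 7, mt-Nd2, which was higher (0.69, adjusted p = 0.00097). For KO against WT, all 7 were above 0 in every population. Of these 1, mt-Nd6, passed in SLEC of day 14 (0.75, adjusted p = 0.05 after rounding) and in the mean (0.56, adjusted p = 0.02). In the mean the median of the 7 was 0.36 and that of the nuclear members -0.02. The WT libraries of day 14 SLEC enter both comparisons. They hold 790.5 and 3077 CPM of B cell markers, against 70.0 and 28.2 CPM in KO. Values of mt-Nd6 without each of them are not given here, and the part of the B cell markers was not tested.

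Counts in the lists that follow stand beside the 13.7% of all genes called lower and 11.4% called higher from day 7 to day 14 SLEC. Of 13 further nuclear components and carriers, 6 fell and 1 rose. Atpif1, an inhibitor of the ATP synthase, gave -1.94 (adjusted p = 1.3e-07), more than any member. Slc25a4 and Slc25a5, which exchange ATP for ADP across the inner membrane, gave -1.11 (adjusted p = 3.1e-06) and -1.25 (adjusted p = 2.5e-05). Gpd2, which feeds electrons from glycerol phosphate into the chain, rose by 0.35 (adjusted p = 0.027) and was lower in MPEC than in day 14 SLEC (-1.22, adjusted p = 1.1e-06). The carrier cytochrome c, Cycs, was at 0.02 (adjusted p = 0.97). Of 49 tested assembly factors, which help build the complexes and are not part of them, 14 fell and none rose, with a median of -0.28, and Surf1, needed for complex IV, was at -0.84 (adjusted p = 0.00027).

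Of 14 enzymes of the tricarboxylic acid cycle, 7 fell and none rose, with a median of -0.42. These were Cs, the 3 subunits of the NAD-dependent isocitrate dehydrogenase (Idh3a, Idh3b and Idh3g), Sucla2, Fh1 and Mdh2, the lowest being Idh3a at -0.80 (adjusted p = 0.00043). Among 16 tested regulators of mitochondrial biogenesis, 2 rose and 1 fell, with a median of 0.09, which is near the share over all genes and no result about the list. The coactivators Ppargc1b and Pprc1 rose by 1.40 (adjusted p = 1.4e-05) and 0.92 (adjusted p = 2.5e-05), and Tfam, which packages and transcribes mitochondrial DNA, was at -0.37 (adjusted p = 0.046). Nrf1 and Yy1, whose letters were searched in the promoters, gave -0.28 (adjusted p = 0.098) and 0.16 (adjusted p = 0.34). For KO against WT, 0 genes of the lists of further components, assembly factors, cycle enzymes and regulators passed in any population by edgeR, and at most 3 genes of a list had an unadjusted p under 0.05.

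Read sharing limits some values. Cut into stretches of 50 bases, the transcripts of 37 members were found in no other annotated gene, while 49 share some stretches, 34 of them with a pseudogene, and 16 have under 75% of their stretches to themselves. The way the counting treated reads with several matches was not given in the sources used here. The levels of these members are therefore uncertain. The most affected were Atp5g2 (12.6% its own, shared with the pseudogene Gm10175), Atp5l (15.2%, with 12 pseudogenes), Cox7c (47.0%) and Atp5o (49.7%), and the second Atp5o row (10.2%), which overlaps Atp5o and Donson. Of the 16 members not called in the day comparison, Atp5g2, Atp5l and Cox7c are among these most affected. Ndufs3 (60.3%), Ndufb4 (63.0%), Ndufs5 (68.9%) and Ndufa12 (73.8%), also not called, are under 75% too. Among the 15 tested members under 75% unique, 8 fell, with a median of -0.62, and among the 34 with 99% or more, 29 fell and Sdha rose, with a median of -0.94. Exons of 28 members overlap a gene on the other strand, among them Ndufs1, Ndufs3, Cox4i1, Cox5a and Atp5a1. Whether the counting used the strand was not given in the sources used here. Reads of such partners may not have been told apart. The row Ndufb1-ps is marked protein_coding in the table despite its name and fell by 0.93 (SE 0.18, adjusted p = 0.00084).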

How the data were processed

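The 12 RNA-seq libraries were prepared with a stranded SMART-Seq kit, per the labels' protocols. The authors deposited a table of raw counts per gene, made with bcl2fastq and STAR 2.6.1a on GRCm38 per the submitters' processing notes. The counting tool, its annotation and its use of strand were not given in the sources used here. Genes were tested with edgeR 4.0.16 in R 4.3.3 (filterByExpr, trimmed mean of M-values, quasi-likelihood test) in 1 fit over all 6 groups with 6 residual degrees of freedom and 13 comparisons. P-values were adjusted by Benjamini-Hochberg over 14460 genes, with a threshold of 0.05. DESeq2 1.42.0, other scalings, no filter, a replicate block, fits of only the groups compared and leaving out each library were alternatives. Replicate numbers were not used as pairs: over 15 pairs of groups their deviations correlated at -0.164 to 0.207. With 1 difference per group this cannot exclude shared hosts or batches. Named per comparison were called members, up to 6 in each direction by size, or the 3 lowest p where fewer than 3 passed, besides core subunits, isoforms and extremes of level. Members and lists were chosen with earlier results of these data known. Positions and lengths come from GENCODE vM21, promoters from RefSeq GRCm38.p6. The tests were tried on simulated data.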

Additional observations from a re-analysis of the deposited data

How the results depend on the processing

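The count of members called over both genotypes from day 7 to day 14 SLEC was 60 or 61 under every alternative that kept all libraries and 53 to 63 with 1 left out. Fitting only the groups compared gave 18 calls in WT SLEC in place of 40, and leaving out 1 library gave 9 to 43 in WT and 24 to 57 in KO. For MPEC against day 14 SLEC in WT, 2 members were called with no filter on low counts, 6 with only the groups compared and 0 to 2 with 1 library left out. In KO these were 2, 3 and 0 to 1. Over both genotypes DESeq2 gave 8 calls, the fits with no filter and with scaling on nuclear protein-coding genes 6, and leaving out 1 library 1 to 8. MPEC against day 7 gave 48 or 49 calls with all libraries and 39 to 54 with 1 left out. The KO comparisons and both differences of the KO effect gave 0 calls under every alternative run. Of 134 changes of named members, 87 stayed on their side of the threshold under all alternatives. The others lost their call in 179 cases and gained one in 2, with 0 reversals. With the replicate block, 38 members were called in WT and 52 in KO from day 7 to day 14, 60 over both. In MPEC against day 14 SLEC these were 1, 0 and 6. Whether the replicate numbers pair libraries was not given in the sources used here. Calls over all genes shifted too. Between the days in WT SLEC, the fit of only the groups compared called 330 of 13277 genes, against 1437 of 14460. For MPEC against day 14 SLEC it called 1998 of 13258 in WT and 1087 of 12296 in KO, against 1151 and 739 of 14460. With no filter these were 1477 and 991 of 32855. Over both genotypes DESeq2 called 2111 of 15656, no filter 2043 of 32855 and nuclear scaling 1930 of 14460, against 1898. Fits of fewer libraries leave fewer degrees of freedom, but the cause of these shifts was not tested. At 7603551 to 14026594 counts per library, members near 1 CPM such as Atp5g1 and Atp5g2 rest on few counts.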
